A study of Arabidopsis thaliana with 115 samples.

Results

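The class III peroxidases are a family of secreted plant enzymes, and 60 of their genes were followed here across 33 transcription factors (TFs). The members were taken as a fixed list of gene identifiers, which includes PRX54 (AT5G06730) and RHS18 (AT5G22410). The rule uses no measured value, but the list was chosen with earlier results of these data known. All 60 are among the 33016 genes counted. A total of 56 members passed the filter on low counts (at least 10 counts in at least 3 libraries), as did 22883 of all genes. The 4 members that did not pass, AT1G49570, AT2G34060, AT2G39040 and AT3G03670, were not tested and so were called for 0 TFs.

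The data come from the TARGET assay, in which a TF fused to part of the glucocorticoid receptor (GR) is expressed transiently in protoplasts from Arabidopsis roots and is released into the nucleus by dexamethasone (DEX). Cells transfected with a GR–TF vector were compared with cells of the same batch that carried the empty vector (EV), which holds the GR part without a TF. All groups share the rest of the treatment. Roots of 10-day-old Col-0 seedlings, grown with 1 mM KNO3, were protoplasted. TF and EV cells alike received nitrogen (20 mM KNO3 and 20 mM NH4NO3), then 35 µM cycloheximide (CHX), which blocks translation, then 10 µM DEX. The cells were sorted by the fluorescence of the vector 3 h after DEX. There are 97 TF libraries and 18 EV libraries in 6 batches, with 3 EV libraries in each batch. Each TF has 3 libraries, except FBH4 and HAT22 with 2 each. The libraries of a TF are wells of 1 transfection experiment, so p-values measure the spread between wells, and all TFs of a batch are set against the same 3 EV libraries. The TF comes from a transient vector, in cells of mixed root origin that have been stripped of their walls.

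Class III peroxidases work in the apoplast and the cell wall. They use hydrogen peroxide to couple monolignols into lignin and to cross-link wall proteins and phenolics, and in another cycle they make reactive oxygen species that loosen the wall or take part in defence. In the root they are known for the Casparian strip of the endodermis, for xylem lignin, for root hair growth and for the oxidative burst, and NADPH oxidases supply the superoxide from which much of the hydrogen peroxide arises. The transcription factor UPBEAT1 is known to repress a set of them where root cells leave the meristem.

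The promoters of 3 members are shown because the results turn on these genes, which belong to 2 tandem pairs with different behaviour. PRX54 and PA2 (AT5G06720) lie side by side and share 84.5% of their residues, and AT4G37520 and AT4G37530 lie side by side and share 89.4%. Each sequence runs from 250 bases before to 50 bases after the annotated start in the RefSeq TAIR10.1 assembly, and capitals mark TTGAC on either strand, the core of the W-box bound by WRKY factors.
PRX54 (AT5G06730), chr5:2081636-2081935, - strand: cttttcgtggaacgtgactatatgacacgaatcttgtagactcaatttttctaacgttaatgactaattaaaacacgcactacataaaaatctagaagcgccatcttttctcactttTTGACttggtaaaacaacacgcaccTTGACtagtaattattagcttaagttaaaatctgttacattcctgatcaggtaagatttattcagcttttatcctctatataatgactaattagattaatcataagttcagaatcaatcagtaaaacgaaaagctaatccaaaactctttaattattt
AT4G37520, chr4:17631250-17631549, + strand: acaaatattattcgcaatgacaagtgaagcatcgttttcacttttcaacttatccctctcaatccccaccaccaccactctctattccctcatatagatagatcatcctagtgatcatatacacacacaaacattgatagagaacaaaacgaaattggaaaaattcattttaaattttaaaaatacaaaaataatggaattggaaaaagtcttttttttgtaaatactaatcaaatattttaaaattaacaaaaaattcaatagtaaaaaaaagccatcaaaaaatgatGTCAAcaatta
AT4G37530, chr4:17634446-17634745, + strand: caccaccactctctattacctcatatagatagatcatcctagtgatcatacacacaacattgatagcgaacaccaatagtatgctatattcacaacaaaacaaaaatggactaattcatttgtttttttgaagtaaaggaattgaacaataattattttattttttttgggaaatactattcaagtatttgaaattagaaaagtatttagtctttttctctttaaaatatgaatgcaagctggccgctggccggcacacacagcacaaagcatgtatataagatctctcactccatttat

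PRX54 holds 2 copies of TTGAC in this window, AT4G37520 holds 1 and AT4G37530 none. Over all members, 34 of 60 promoters (56.7%) contained TTGAC, against 50.5% of 27443 promoters of the same length. The TGA core TGACG was found in 18.3% of member promoters and 23.1% of all, and the ERF box GCCGCC in 5.0% of member promoters and 2.57% of all. The heat shock core GAANNTTC was found in 6.67% of member promoters and 11.6% of all. The G-box CACGTG and the RAV1 motif CACCTG were found in 0 member promoters, against 7.68% and 3.31% of all promoters. Both strands were searched for each motif, and TTGAC and TGACG overlap where a promoter reads TTGACG. A match says only that these letters are in the window.

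Total counts per library ran between 1542961 and 45372240 (median 12336285), with a median of 14342552 in batches 1 to 4 and 5198905.5 in batches 5 and 6. The 10 most counted genes took 4.69% to 8.14% of counts in batches 1 to 4 and 18.3% to 49.5% in batches 5 and 6. The 5 shoot photosynthesis genes summed to at most 5.45 CPM in EV libraries of batches 1 to 4 and 0.932 CPM in those of batches 5 and 6. The cortex marker CO2 was at 0 in every EV library, the 8 endodermis markers summed to 23.3 to 122.8 CPM in EV of batches 1 to 4 and 69.2 to 120.2 CPM in batches 5 and 6, and the 6 root hair markers summed to 8.39 to 145.5 CPM and 4.78 to 18.1 CPM in the same batches. Fewer cells of a type and less RNA per cell cannot be told apart in these bulk libraries.

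The peroxidases differ widely in level. CPM, the usual count unit scaled by library size, was taken on TMM-normalized library sizes, and levels between genes are compared only per kilobase of exon. Over the 18 EV libraries, 13 members had a median of at least 100 CPM and 13 a median under 1 CPM. The highest per kilobase was AT5G39580, a peroxidase of root hair growth in the cold, with a median of 1297 CPM per kilobase. It was followed by PER4 (AT1G14540) at 962, PA2 at 713 and AT4G36430 at 383 CPM per kilobase. The first 2 of these overlap in their spread, since the EV libraries of AT5G39580 spanned 681 to 3731 CPM (median 1673) and those of PER4 spanned 345 to 3641 CPM (median 1216). Both genes are on the study's list of genes that change more than 5-fold with CHX. All libraries here had CHX, so these ranks hold for cells under CHX only.

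EV levels also differed between batches. Of the 28 members with a median of at least 10 CPM in EV libraries of batches 1 to 4, 7 were over 10 times lower in those of batches 5 and 6. PRX25 (AT2G41480), which takes part in stem lignification, had a median of 0 CPM in EV libraries of batches 5 and 6, against 269 CPM in those of batches 1 to 4. PA2, the neighbour of PRX54, had medians of 12.5 and 1136 CPM in the same order. AT2G37130, AT2G35380, AT1G68850, AT4G33420 and AT2G38390 were the other 5 of these members. The batches differ in depth and in the share of the 10 most counted genes as well, and these cannot be told apart from the batch. The plot of EV levels shows this gap beside the spread within a batch.

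**Figure D1:**
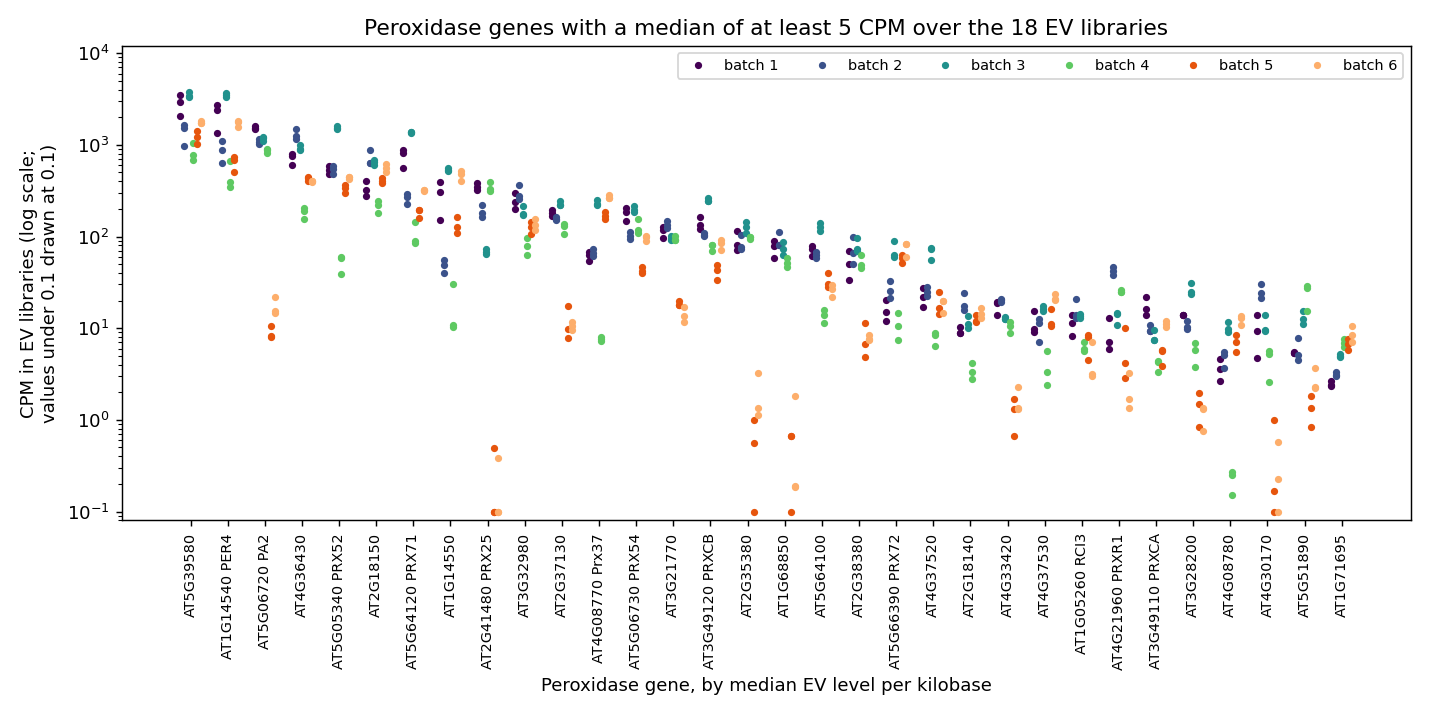
Level of each peroxidase gene with a median of at least 5 CPM in the 18 EV libraries (y axis, CPM, log scale), 1 point per library and 1 colour per batch, ordered by level per kilobase. Batches 5 and 6 lie far below batches 1 to 4 for PA2, PRX25, AT2G35380 and AT1G68850. They also lie wholly below for some other genes, such as AT2G37130, AT3G21770, AT2G38380 and AT4G33420, but among batches 1 to 4 for most genes.

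Across the 33 TFs, 353 of 1848 member–TF comparisons (19.1%) passed an adjusted p of 0.05 in the edgeR quasi-likelihood test, 166 with higher and 187 with lower levels under the TF. Over all genes tested, 9.58% of comparisons passed. In total 47 of the 56 tested members were called for at least 1 TF, 32 of them in both directions, 6 only upward and 9 only downward. As shares of tested genes, 83.9% of the members and 70.2% of all genes were called at least once, and 26.8% of the members and 8.46% of all genes for 10 or more TFs. Of the 353 calls, 328 had every TF library on one side of every EV library of the batch. The matching count over all genes was not computed, so this count is not a result about the members. The shares above do not take into account that the members and other genes differ in level. They also do not take into account that the members were chosen with earlier results of these data known. Without replicate 2 of every group there were 202 calls, of which 193 were among the 353. Without replicate 1 there were 304 (281 shared) and without replicate 3 there were 278 (258 shared).

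**Figure D2:**
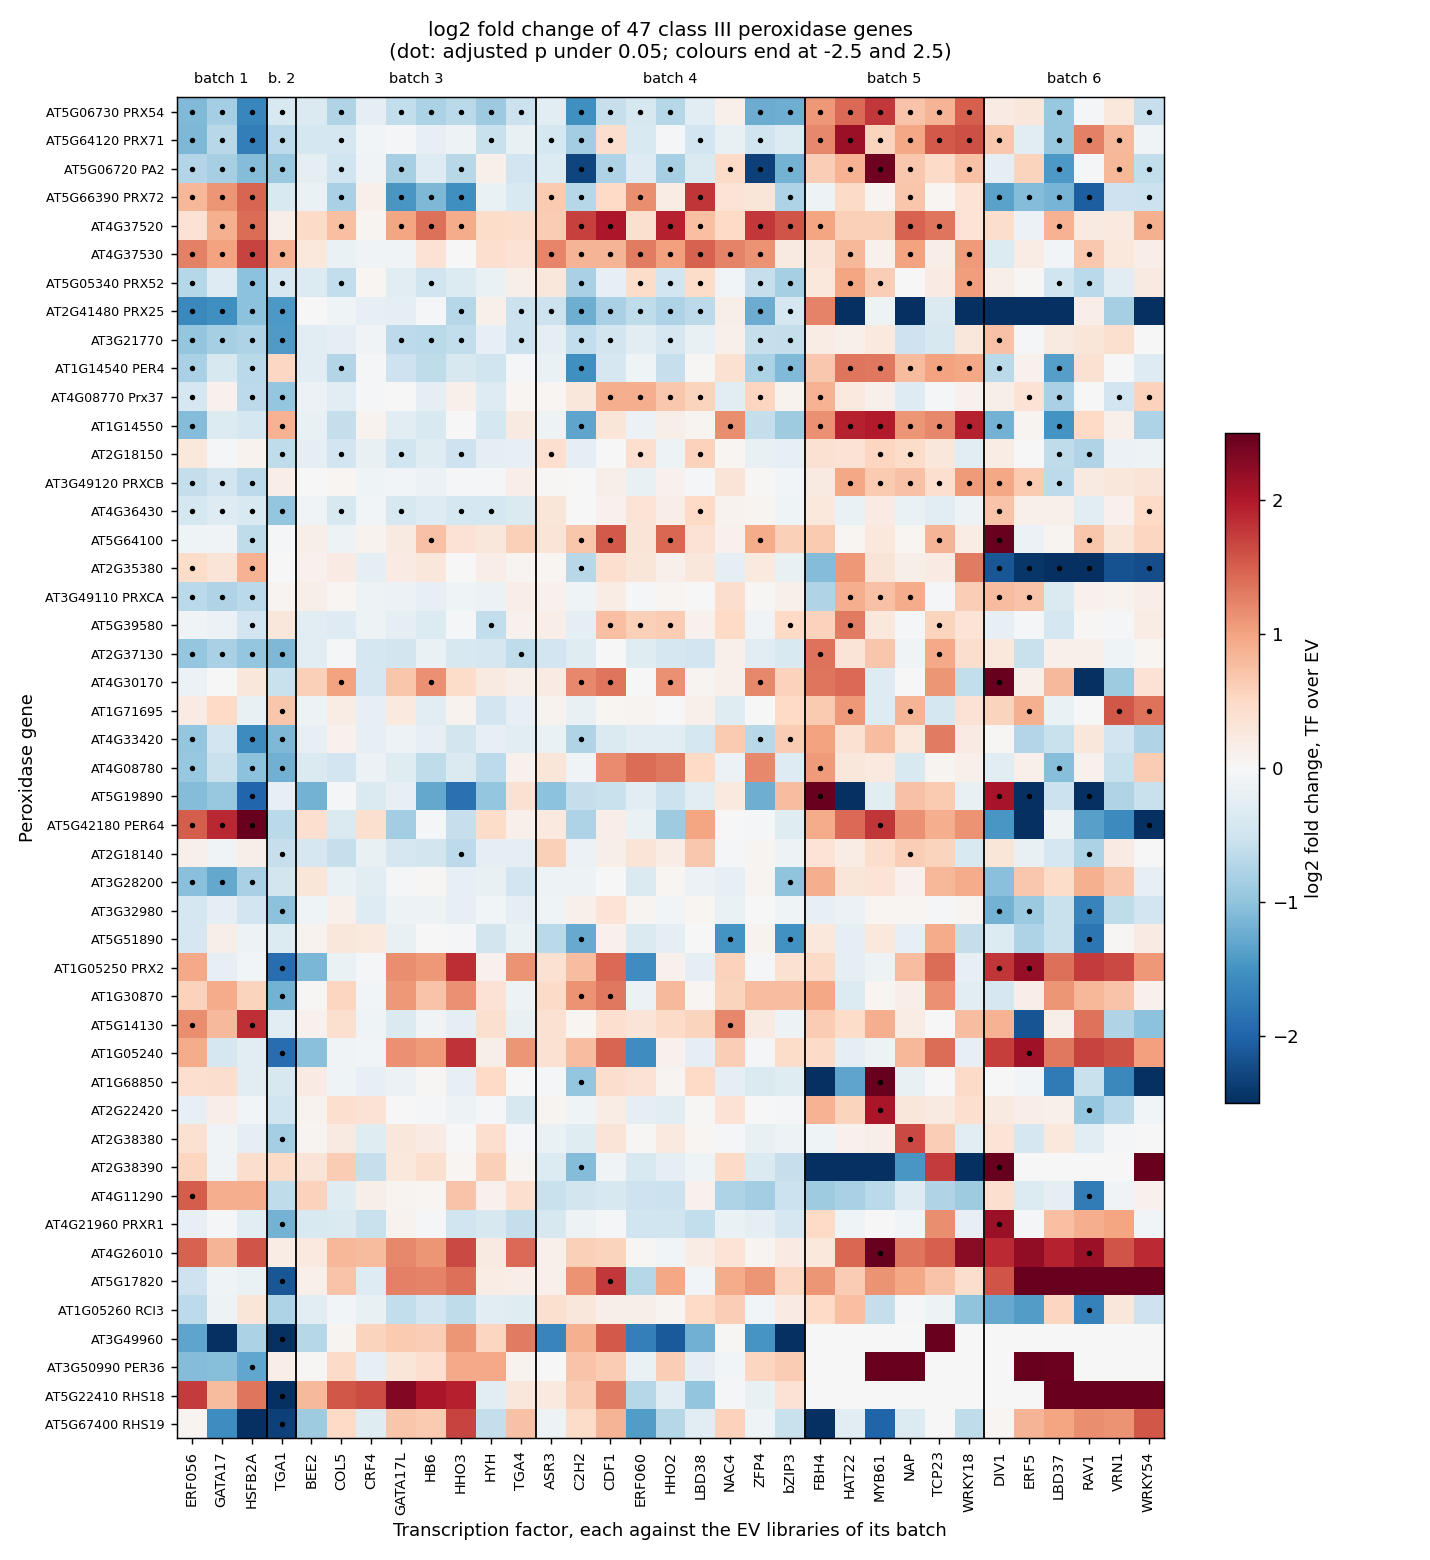
Log2 fold change, TF over EV, of the 47 peroxidase genes called at least once (rows) for the 33 TFs (columns, grouped by batch), with a dot where the adjusted p is under 0.05. PRX54 has dots on blue cells under 18 TFs and on red cells under the 6 TFs of batch 5, while AT4G37520 and AT4G37530 are red wherever they are called.

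In batch 1, all 3 TFs repressed more members than they induced. Each share below is of the 56 tested members, beside the share of all 22883 genes called in that direction. ERF056 induced 6 members (10.7%, all genes 8.02%) and repressed 16 (28.6%, all genes 10.6%). GATA17 induced 4 members (7.14%, all genes 6.28%) and repressed 10 (17.9%, all genes 9.83%). HSFB2A, a class B heat shock factor, induced 6 members (10.7%, all genes 9.68%) and repressed 19 (33.9%, all genes 12.2%). The summed peroxidase level was 6565 to 7515 CPM in HSFB2A libraries, against 9092 to 12020.5 CPM in EV libraries, and the groups did not overlap.

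Batch 2 held TGA1 alone, a bZIP factor of the nitrate response. TGA1 induced 3 members (5.36%, all genes 9.01%) and repressed 23 (41.1%, all genes 10.7%). These 26 calls stand beside 25 for HSFB2A, and DESeq2 gave 26 for TGA1 and 27 for HSFB2A, so their order depends on the tool. TGA1 had 19 calls without EV replicate 1 of batch 2 and 17 without replicate 1 of every group. Its median log2 fold change was -0.60 over the members and -0.03 over all genes.

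Batch 3 gave few calls. BEE2 induced 0 members (0%, all genes 0.302%) and repressed 0 (0%, all genes 0.59%). CRF4 induced 0 members (0%, all genes 0.673%) and repressed 0 (0%, all genes 0.035%). Beside these counts of 0, edgeR gave 3 higher and 5 lower members at an unadjusted p under 0.05 for BEE2, and 0 higher and 1 lower for CRF4. DESeq2 called 1 member lower for BEE2 and 0 for CRF4, and edgeR called 1 member for BEE2 without EV replicate 1 or 3 of batch 1 or EV replicate 2 or 3 of batch 4. COL5 induced 2 members (3.57%, all genes 1.88%) and repressed 8 (14.3%, all genes 2.09%). GATA17L induced 1 member (1.79%, all genes 1.95%) and repressed 6 (10.7%, all genes 2.62%). HB6 induced 3 members (5.36%, all genes 2.47%) and repressed 4 (7.14%, all genes 4.06%). HHO3 induced 1 member (1.79%, all genes 1.03%) and repressed 8 (14.3%, all genes 1.87%).

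HYH and TGA4 completed that batch with calls in 1 direction only. HYH induced 0 members (0%, all genes 1.98%) and repressed 4 (7.14%, all genes 4.85%). TGA4 induced 0 members (0%, all genes 0.638%) and repressed 4 (7.14%, all genes 0.756%). At an unadjusted p under 0.05 edgeR gave 5 members higher for HYH and 3 for TGA4, and DESeq2 called 0 and 1. Counts in batch 3 rest on single EV libraries: without EV replicate 1 of that batch, 26 member calls were left in place of 41, COL5 had 4 in place of 10 and TGA4 had 1 in place of 4. Without EV replicate 2 or 3, COL5 had 6 in each case and TGA4 had 2 and 1.

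Batch 4 had 48 calls upward and 47 downward, a split that rests on single libraries. Without EV replicate 1 of this batch there were 31 upward and 46 downward, without EV replicate 3 there were 42 and 34, and without replicate 2 of every group 17 and 33. ASR3 induced 3 members (5.36%, all genes 1.74%) and repressed 2 (3.57%, all genes 2.0%). C2H2, a zinc finger protein, induced 5 members (8.93%, all genes 6.58%) and repressed 14 (25%, all genes 8.69%). CDF1, a DOF factor, induced 9 members (16.1%, all genes 4.1%) and repressed 4 (7.14%, all genes 2.94%). ERF060 induced 6 members (10.7%, all genes 2.68%) and repressed 2 (3.57%, all genes 2.04%). HHO2 induced 6 members (10.7%, all genes 4.21%) and repressed 5 (8.93%, all genes 4.37%). LBD38 induced 7 members (12.5%, all genes 2.1%) and repressed 2 (3.57%, all genes 2.52%).

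NAC4, ZFP4 and bZIP3 were the other TFs of batch 4. NAC4 induced 4 members (7.14%, all genes 3.37%) and repressed 1 (1.79%, all genes 1.76%). ZFP4 induced 5 members (8.93%, all genes 3.82%) and repressed 8 (14.3%, all genes 5.31%). The bZIP3 construct induced 3 members (5.36%, all genes 6.12%) and repressed 9 (16.1%, all genes 6.83%). ASR3 had 3 calls without EV replicate 2 and 1 without EV replicate 3 of this batch, in place of 5, and NAC4 had 2 without EV replicate 1 and 2 without EV replicate 2, in place of 5.

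All 63 calls in batch 5 were upward. FBH4 induced 8 members (14.3%, all genes 3.67%) and repressed 0 (0%, all genes 2.63%). HAT22, a homeodomain leucine zipper protein, induced 11 members (19.6%, all genes 10.4%) and repressed 0 (0%, all genes 6.57%). MYB61, an R2R3 MYB factor, induced 13 members (23.2%, all genes 6.94%) and repressed 0 (0%, all genes 4.73%). NAP, a NAC factor of leaf ageing, induced 14 members (25%, all genes 4.87%) and repressed 0 (0%, all genes 3.53%). TCP23 induced 9 members (16.1%, all genes 6.28%) and repressed 0 (0%, all genes 4.11%). WRKY18 induced 8 members (14.3%, all genes 3.54%) and repressed 0 (0%, all genes 2.38%).

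The 0 repressed members of these 6 TFs stand beside 1 or 2 for each TF at an unadjusted p under 0.05 in edgeR, and beside 1 for HAT22, 1 for NAP and 0 for the other 4 in DESeq2. NAP had 8 calls without EV replicate 1 of batch 5, in place of 14. All 6 TFs share 3 EV libraries, in which the summed peroxidase level was 3576 to 4243 CPM. Over their libraries the sum was lowest for NAP, at 4611 to 5219.6 CPM, and highest for HAT22, at 8116 to 8569.7 CPM, so each library exceeded every EV library of its batch. Of all genes called in batch 5, 59.9% were higher under the TF. Whether the TFs or these EV libraries set the common direction cannot be told apart within the batch.

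In batch 6 the direction depended on the TF. DIV1, a MYB-type factor, induced 11 members (19.6%, all genes 9.89%) and repressed 5 (8.93%, all genes 15.4%). ERF5 induced 6 members (10.7%, all genes 3.47%) and repressed 4 (7.14%, all genes 3.86%). LBD37 induced 1 member (1.79%, all genes 4.42%) and repressed 12 (21.4%, all genes 6.28%). RAV1 induced 4 members (7.14%, all genes 12.2%) and repressed 11 (19.6%, all genes 12.2%). VRN1 induced 3 members (5.36%, all genes 1.71%) and repressed 1 (1.79%, all genes 0.839%). WRKY54 induced 4 members (7.14%, all genes 5.43%) and repressed 5 (8.93%, all genes 5.31%).

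ERF5 had 6 calls without EV replicate 2 and 4 without EV replicate 3 of batch 6, in place of 10. Of the DIV1 calls, 3 sit on 1 library. AT2G38390 had 0, 0 and 5.33 CPM in DIV1 libraries, against 0, 0 and 0 CPM in EV libraries, AT5G19890 had 0.278, 0 and 13.98 CPM in DIV1 libraries, against 0.909, 0.932 and 0.948 CPM in EV libraries, and PRXR1 (AT4G21960) had 2.08, 4.67 and 28.96 CPM in DIV1 libraries, against 1.36, 1.68 and 3.22 CPM in EV libraries. In each of these 3 the third DIV1 library stood far above the other two, and without replicate 3 of every group the edgeR adjusted p was 0.117 for AT5G19890, with a log2 fold change of -2.58, and 0.231 for PRXR1. All 16 counts of AT2G38390 were in that 1 library. DIV1 replicate 3 had 49.5% of its counts in its 10 most counted genes, the largest share of all libraries. It held counts for 16497 genes, the fewest of all libraries, and every DIV1 comparison includes it.

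**Figure D3:**
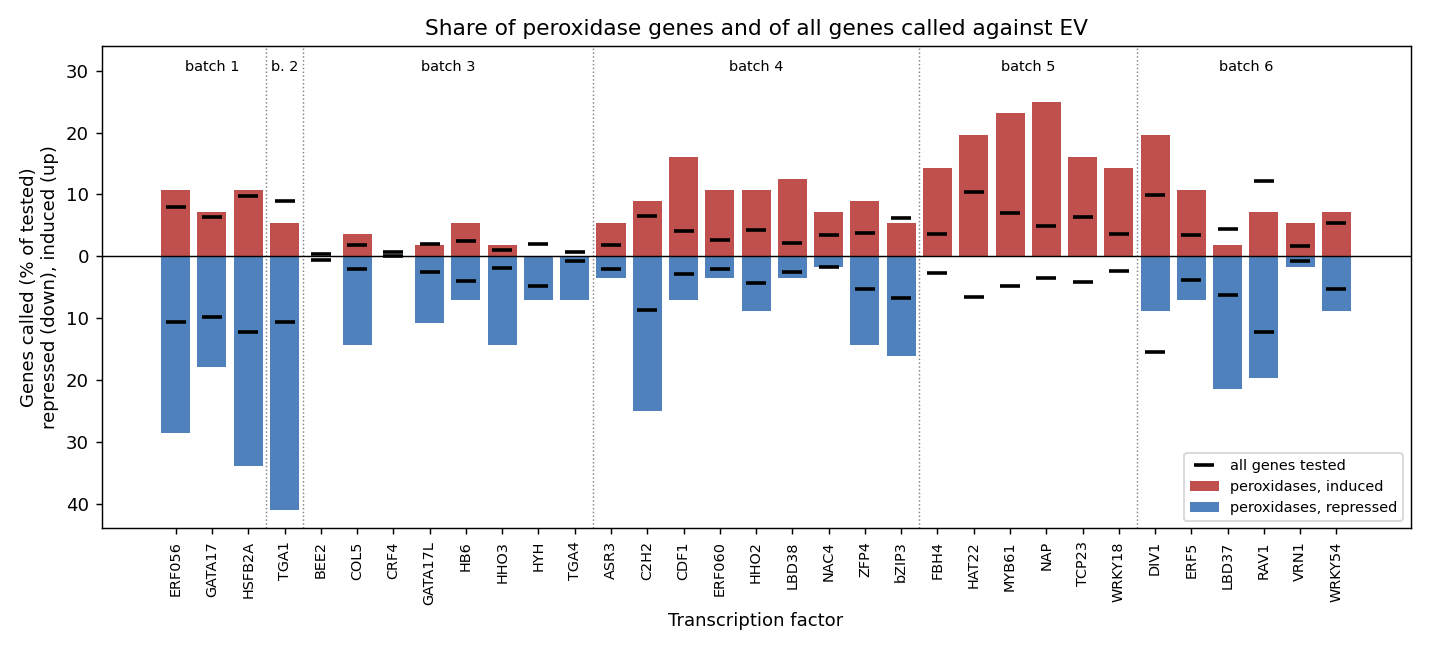
Percent of the 56 tested peroxidase genes called induced (red, up) or repressed (blue, down) for each TF, with black marks for the percent of all genes called in that direction. The blue bars are longest for TGA1 (41.1%), HSFB2A (33.9%) and ERF056 (28.6%), and batch 5 has red bars alone.

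The oxidative burst, pathogen and wound group comprised PRXCA (AT3G49110) and PRXCB (AT3G49120), which produce the apoplastic burst after elicitors, together with PA2 and PRX54. All 4 were tested, with 24 calls upward and 39 downward (47.7% of 132 comparisons, all genes 9.58%). This group and those below were chosen with earlier results of these data known. ERF056, GATA17 and HSFB2A each repressed all 4, and HAT22, MYB61 and NAP each induced all 4.

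PRX54 was called for 24 TFs, 6 of them upward and 18 downward, more than any other member in edgeR. DESeq2 called 24 TFs for PRX54, 24 for PRX71 and 27 for PA2. Under HSFB2A it had 52.5, 59.6 and 61.5 CPM in HSFB2A libraries, against 146, 187 and 207 CPM in EV libraries (log2 fold change -1.63 ± 0.13 (SE), edgeR adjusted p = 7.28e-21). Every HSFB2A library lay below every EV library. Under C2H2 it had 46, 39.9 and 46.2 CPM in C2H2 libraries, against 117, 110.3 and 154 CPM in EV libraries (log2 fold change -1.53 ± 0.13 (SE), edgeR adjusted p = 3.54e-19). Under ERF056 it had 71.2, 85.5 and 93.3 CPM in ERF056 libraries, against 146, 187 and 207 CPM in EV libraries (log2 fold change -1.11 ± 0.12 (SE), edgeR adjusted p = 2.97e-12). Those 2 TFs also sit below all their EV libraries. MYB61 gave the opposite direction, with 159, 154 and 127 CPM in MYB61 libraries, against 46.4, 40.2 and 41.9 CPM in EV libraries (log2 fold change 1.77 ± 0.14 (SE), edgeR adjusted p = 2.68e-21). The EV libraries of batch 5 were the lowest of the 6 batches for this gene, which spanned 40.2 to 215 CPM (median 111) over all EV libraries.

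PA2, the tandem neighbour of PRX54, was called for 20 TFs, 6 upward and 14 downward. PA2 and PRX54 were both called under 18 TFs, 4 times both upward and 14 times both downward, and 0 times in opposite directions. ZFP4 gave PA2 its largest fall, with 179.7, 182 and 152 CPM in ZFP4 libraries, against 869.7, 810.4 and 897 CPM in EV libraries (log2 fold change -2.33 ± 0.15 (SE), edgeR adjusted p = 1.80e-24). C2H2 gave 184, 162 and 176 CPM in C2H2 libraries, against 869.7, 810.4 and 897 CPM in EV libraries (log2 fold change -2.303 ± 0.15 (SE), edgeR adjusted p = 2.51e-24). In both TFs the libraries held less than any EV library by a wide margin. ERF056 gave a smaller change, 921, 977 and 904 CPM in ERF056 libraries, against 1494, 1620.2 and 1512 CPM in EV libraries (log2 fold change -0.72 ± 0.14 (SE), edgeR adjusted p = 3.47e-05). In MYB61 it rose above the low EV level of batch 5, with 56.97, 45.2 and 44.1 CPM in MYB61 libraries, against 8.29, 8.097 and 10.6 CPM in EV libraries (log2 fold change 2.43 ± 0.20 (SE), edgeR adjusted p = 2.00e-18). In TCP23 libraries PA2 had 18.2, 12.6 and 0.451 CPM, so the third library stood apart from the other two, and the gene was not called there.

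**Figure D4:**
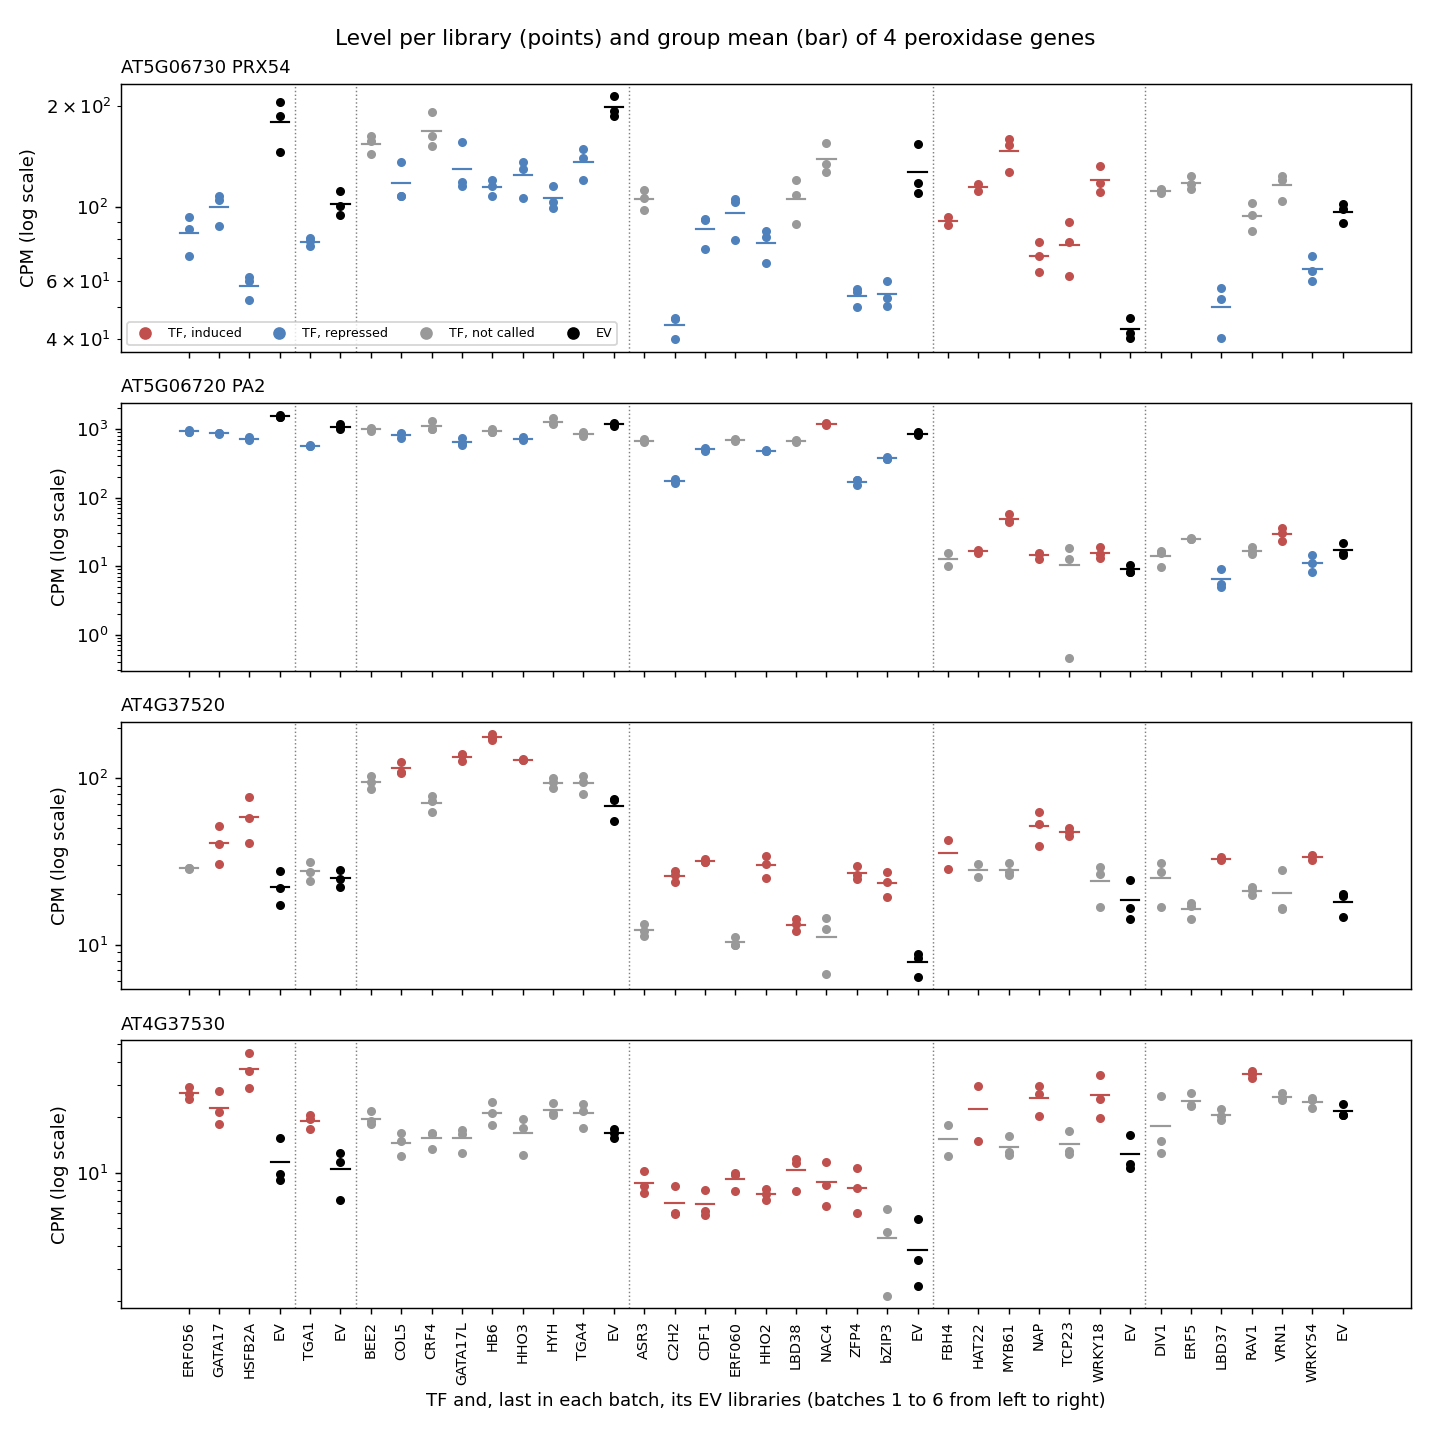
Level per library in CPM (y axis, log scale) of PRX54, PA2, AT4G37520 and AT4G37530 for every TF and, last in each batch, EV; bars are group means, and colour shows the call against EV. PRX54 and PA2 lie below EV in most TFs of batches 1 to 4, and in batch 5 PRX54 was called higher in all 6 TFs and PA2 in 4, while AT4G37520 and AT4G37530 lie above EV wherever they are called.

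PRXCB was called for 11 TFs (7 upward, 4 downward) and PRXCA for 8 (5 upward, 3 downward). Their proteins share 92.9% of residues, so reads may be split between them or counted for both. They were called together under 8 TFs, always in the same direction. DIV1 gave PRXCB 176, 164 and 147 CPM in DIV1 libraries, against 92.1, 86.1 and 72.05 CPM in EV libraries (log2 fold change 0.97 ± 0.12 (SE), edgeR adjusted p = 5.83e-11). ERF056 gave PRXCB 88.3, 86.6 and 102 CPM in ERF056 libraries, against 120.4, 132 and 165 CPM in EV libraries (log2 fold change -0.59 ± 0.11 (SE), edgeR adjusted p = 2.45e-05), and gave PRXCA 10.8, 11.47 and 10.03 CPM in ERF056 libraries, against 14.1, 16.3 and 21.7 CPM in EV libraries (log2 fold change -0.68 ± 0.19 (SE), edgeR adjusted p = 0.00463). The PRXCA difference under ERF056 was a call lost without EV replicate 3 (edgeR adjusted p = 0.0794) and without replicate 3 (edgeR adjusted p = 0.159) of every group.

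AT3G32980, whose protein shares 89.2% of residues with PRXCB, went the other way. It was called for 4 TFs, all downward, and under DIV1 it had 64.1, 60.05 and 51.9 CPM in DIV1 libraries, against 154, 134 and 117 CPM in EV libraries (log2 fold change -1.19 ± 0.22 (SE), edgeR adjusted p = 1.05e-05). DIV1 and ERF5 were the 2 TFs under which it was called together with PRXCB, and in both PRXCB rose and AT3G32980 fell.

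The vascular and stem lignin group held 8 members and had 24 calls upward and 55 downward (29.9% of 264 comparisons, all genes 9.58%). C2H2 repressed 6 of the 8, namely PER4, PRX25, AT4G33420, PRX52 (AT5G05340), AT5G51890 and PRX71 (AT5G64120), and ERF056, HSFB2A, TGA1 and ZFP4 each repressed 5. MYB61 induced 4 and repressed 0. The 6 xylem markers were called for 0 genes under C2H2, where they summed to 35.01 to 43.3 CPM in C2H2 libraries, against 40.03 to 66.1 CPM in EV libraries. Under ERF056 3 of the 6 fell, and the sum was 12.8 to 14.9 CPM in ERF056 libraries, against 15.1 to 39.4 CPM in EV libraries. Under HSFB2A 2 fell, and the sum was 15.1 to 17.6 CPM in HSFB2A libraries, against 15.1 to 39.4 CPM in EV libraries, so the groups overlapped. None of the 6 was called under TGA1, with a sum of 19.95 to 23.3 CPM in TGA1 libraries, against 22.7 to 29.6 CPM in EV libraries, or under ZFP4, with 64.9 to 89.1 CPM in ZFP4 libraries, against 40.03 to 66.1 CPM in EV libraries. The part of xylem cells in these results was not tested.

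PRX71, which takes part in lignification and restrains cell growth, was called for 21 TFs, 10 upward and 11 downward. It is also among the genes the study lists as responsive to CHX and left out of its lists of TF targets. That list holds 9 members, which have 70 of the 353 calls. HAT22 gave 814 and 814 CPM in HAT22 libraries, against 161, 195 and 195 CPM in EV libraries (log2 fold change 2.15 ± 0.14 (SE), edgeR adjusted p = 4.35e-26). HSFB2A gave 239, 223 and 219 CPM in HSFB2A libraries, against 563, 822 and 868 CPM in EV libraries (log2 fold change -1.73 ± 0.13 (SE), edgeR adjusted p = 2.31e-22), and ERF056 gave 348, 371 and 313 CPM in ERF056 libraries, against 563, 822 and 868 CPM in EV libraries (log2 fold change -1.13 ± 0.12 (SE), edgeR adjusted p = 1.68e-12). Both HAT22 libraries were far above EV, and all HSFB2A and ERF056 libraries were below it. C2H2 gave 61.6, 53.7 and 57.4 CPM in C2H2 libraries, against 89.4, 84.96 and 143 CPM in EV libraries (log2 fold change -0.88 ± 0.13 (SE), edgeR adjusted p = 2.33e-08).

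PRX52, which takes part in lignin formation in stems, was called for 16 TFs, 5 upward and 11 downward. HSFB2A gave 307, 267 and 214 CPM in HSFB2A libraries, against 528, 587 and 479.6 CPM in EV libraries (log2 fold change -1.02 ± 0.12 (SE), edgeR adjusted p = 1.94e-11). WRKY18 gave 688, 671 and 707 CPM in WRKY18 libraries, against 299, 361 and 337 CPM in EV libraries (log2 fold change 1.05 ± 0.12 (SE), edgeR adjusted p = 4.53e-11). These are opposite directions from EV libraries that differed by batch. C2H2 gave 32.8, 29.1 and 27.6 CPM in C2H2 libraries, against 58.4, 39.2 and 60.3 CPM in EV libraries (log2 fold change -0.82 ± 0.13 (SE), edgeR adjusted p = 2.46e-07).

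PRX25 was called for 14 TFs, all downward and all in batches 1 to 4, where alone it was measured above a few counts. Beside its 0 upward calls stand 0 at an unadjusted p under 0.05 in edgeR and 0 in DESeq2. ERF056 gave 99.1, 107 and 138 CPM in ERF056 libraries, against 319.8, 386 and 349 CPM in EV libraries (log2 fold change -1.61 ± 0.14 (SE), edgeR adjusted p = 3.60e-16). C2H2 gave 145, 141 and 159 CPM in C2H2 libraries, against 315, 332 and 395 CPM in EV libraries (log2 fold change -1.23 ± 0.13 (SE), edgeR adjusted p = 6.42e-12), and TGA1 gave 64.7, 68.04 and 78.4 CPM in TGA1 libraries, against 163, 223 and 183 CPM in EV libraries (log2 fold change -1.43 ± 0.14 (SE), edgeR adjusted p = 5.15e-14). In all 3 the TF libraries lay below every EV library. PRX25 is on the study's CHX list.

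PER4, called for 13 TFs (5 upward, 8 downward), and its neighbour AT1G14550, called for 12 (8 upward, 4 downward), are also CHX-listed. Both were called under 9 TFs, 5 times both upward and 4 times both downward. MYB61 gave PER4 1553, 1694 and 1558 CPM in MYB61 libraries, against 508, 684 and 742 CPM in EV libraries (log2 fold change 1.31 ± 0.23 (SE), edgeR adjusted p = 5.61e-06), and AT1G14550 501, 582 and 512 CPM in MYB61 libraries, against 109.6, 127 and 165 CPM in EV libraries (log2 fold change 1.99 ± 0.31 (SE), edgeR adjusted p = 7.52e-07). C2H2 gave PER4 128, 149 and 210.1 CPM in C2H2 libraries, against 345, 395 and 666 CPM in EV libraries (log2 fold change -1.53 ± 0.23 (SE), edgeR adjusted p = 1.56e-07). LBD37 gave AT1G14550 148, 190.3 and 161 CPM in LBD37 libraries, against 408, 486 and 518 CPM in EV libraries (log2 fold change -1.504 ± 0.31 (SE), edgeR adjusted p = 1.86e-04), a call lost without replicate 2 (edgeR adjusted p = 0.0547) of every group. So AT1G14550 was high in MYB61 libraries and low in LBD37 libraries. TGA1 raised AT1G14550, with 86.7, 78.9 and 100.001 CPM in TGA1 libraries, against 40.3, 49.3 and 55.2 CPM in EV libraries (log2 fold change 0.87 ± 0.31 (SE), edgeR adjusted p = 0.0346), a call lost without EV replicate 1 (edgeR adjusted p = 0.139) or 2 (0.0738) and without replicate 1 (edgeR adjusted p = 0.0522) or 2 (0.2195) or 3 (0.0836) of every group.

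AT5G51890, tied to lignification of tracheary elements, was called for 4 TFs, all downward (C2H2, NAC4, RAV1 and bZIP3). Under C2H2 it had 10.4, 6.001 and 13.8 CPM in C2H2 libraries, against 28.7, 15.3 and 27.6 CPM in EV libraries (log2 fold change -1.25 ± 0.30 (SE), edgeR adjusted p = 0.00115). AT4G33420 was called for 6 TFs, 1 upward and 5 downward, and under C2H2 had 6.06, 5.66 and 6.76 CPM in C2H2 libraries, against 10.7, 8.93 and 11.7 CPM in EV libraries (log2 fold change -0.76 ± 0.23 (SE), edgeR adjusted p = 0.01398), a call lost without EV replicate 3 (edgeR adjusted p = 0.0716) and without replicate 1 (edgeR adjusted p = 0.125) or 2 (0.0843) or 3 (0.0592) of every group. AT2G22420 was called for 2 TFs, upward under MYB61 and downward under RAV1. PRX2 (AT1G05250), the eighth member of the group, is described with the root hair genes.

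The endodermal lignin group had 5 members, with 12 calls upward and 14 downward (15.8% of 165 comparisons, all genes 9.58%). PRX72 (AT5G66390) and PER64 (AT5G42180) are among the peroxidases of the Casparian strip and of stem lignin. ERF056 induced 3 of the 5 and RAV1 repressed 3 of them. PRX72 had 18 calls, 7 upward and 11 downward. LBD38 gave it 37.8, 34.4 and 40.04 CPM in LBD38 libraries, against 14.5, 7.39 and 10.6 CPM in EV libraries (log2 fold change 1.79 ± 0.19 (SE), edgeR adjusted p = 7.49e-11). HSFB2A gave 40.5, 40.6 and 51.4 CPM in HSFB2A libraries, against 20.3, 11.99 and 14.98 CPM in EV libraries (log2 fold change 1.45 ± 0.19 (SE), edgeR adjusted p = 9.39e-10), and ERF056 24.3, 29.8 and 31.6 CPM in ERF056 libraries, against 20.3, 11.99 and 14.98 CPM in EV libraries (log2 fold change 0.83 ± 0.19 (SE), edgeR adjusted p = 5.39e-04), a call lost without replicate 2 (edgeR adjusted p = 0.116) of every group. All 3 TFs were above all EV libraries of their batch.

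Downward calls of PRX72 were as large. RAV1 gave 24.7, 14.4 and 15.8 CPM in RAV1 libraries, against 82.99, 83.1 and 60.1 CPM in EV libraries (log2 fold change -2.05 ± 0.20 (SE), edgeR adjusted p = 3.09e-14), and DIV1 gave 33.2, 30.2 and 23.97 CPM in DIV1 libraries, against 82.99, 83.1 and 60.1 CPM in EV libraries (log2 fold change -1.34 ± 0.19 (SE), edgeR adjusted p = 2.88e-08). Under LBD38, HSFB2A, RAV1 and ERF056 the sum of the 8 endodermis markers moved beside PRX72, with only some of the markers called. They summed to 70.6 to 83.4 CPM in LBD38 libraries, against 23.3 to 31.3 CPM in EV libraries, with 4 called higher. In HSFB2A libraries they summed to 62.3 to 71.8 CPM, against 33.6 to 35.9 CPM in EV libraries, with 4 called higher. Under RAV1 they summed to 24.6 to 30.5 CPM in RAV1 libraries, against 69.2 to 90 CPM in EV libraries with 3 called lower, and under ERF056 to 41.98 to 44.4 CPM in ERF056 libraries, against 33.6 to 35.9 CPM in EV libraries with 2 called higher. The marker MYB36 was called in the same direction as PRX72 under HSFB2A, DIV1, ERF5, GATA17L and RAV1. It was called in the opposite direction under NAP, where PRX72 rose, and under bZIP3, where PRX72 fell. CASP5 and ESB1 of this list were called for 0 TFs. The part of these cells in the PRX72 result was not tested.

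PER64 was called for 5 TFs, 4 upward and 1 downward. HSFB2A gave 6.698, 7.82 and 5.72 CPM in HSFB2A libraries, against 2.11, 0.3898 and 0.425 CPM in EV libraries (log2 fold change 2.57 ± 0.45 (SE), edgeR adjusted p = 2.16e-06), so the TF libraries were above all EV libraries at a low level. ERF056 gave 3.41, 3.51 and 2.81 CPM in ERF056 libraries, against 2.11, 0.3898 and 0.425 CPM in EV libraries (log2 fold change 1.51 ± 0.46 (SE), edgeR adjusted p = 0.0115), a call lost without EV replicate 2 (edgeR adjusted p = 0.0993) or 3 (0.0929) and without replicate 2 (edgeR adjusted p = 0.252) of every group. AT4G11290 was called for 2 TFs. ERF056 raised it, with 3.76, 2.14 and 3.65 CPM in ERF056 libraries, against 1.39, 0.585 and 1.27 CPM in EV libraries (log2 fold change 1.504 ± 0.48 (SE), edgeR adjusted p = 0.0158), a call lost without EV replicate 2 (edgeR adjusted p = 0.103) and without replicate 1 (edgeR adjusted p = 0.0879) or 2 (0.138) of every group. RAV1 lowered it, with 2.21, 2.15 and 1.38 CPM in RAV1 libraries, against 8.41, 5.59 and 6.07 CPM in EV libraries (log2 fold change -1.76 ± 0.49 (SE), edgeR adjusted p = 0.00395). RCI3 (AT1G05260), induced by cold, was called for 1 TF, downward under RAV1. AT1G44970 was called for 0.

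The root hair group comprised 6 members, with 17 calls upward and 6 downward (11.6% of 198 comparisons, all genes 9.58%), a share near that of all genes. TGA1 repressed 3 of them, AT1G05240, RHS18 and RHS19 (AT5G67400). RHS18, a root hair specific gene, was at or near 0 in EV libraries outside batch 2 (at most 1.505 CPM). In batch 2 it had 0.521, 0.694 and 0.418 CPM in TGA1 libraries, against 10.12, 11.8 and 15.4 CPM in EV libraries (log2 fold change -4.500 ± 0.81 (SE), edgeR adjusted p = 1.44e-05), its single call. RHS19 had 0.8097, 1.94 and 0.279 CPM in TGA1 libraries, against 5.63, 3.89 and 5.41 CPM in EV libraries (log2 fold change -2.33 ± 0.64 (SE), edgeR adjusted p = 0.004295), also its only call and a call lost without replicate 1 (edgeR adjusted p = 0.1201) or 3 (0.0745) of every group. In both genes the TGA1 libraries lay below every EV library.

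Root hair markers moved the same way under TGA1. All 6 (SHV2, EXPA7, EXPA18, LRX1, RHD6 and RSL4) were called lower, and they summed to 34.4 to 41.2 CPM in TGA1 libraries, against 112 to 145 CPM in EV libraries. In EV libraries of the other 5 batches this sum was at most 32.5 CPM, so batch 2 began from the highest root hair signal. The part of root hair cells in these results was not tested.

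**Figure D5:**
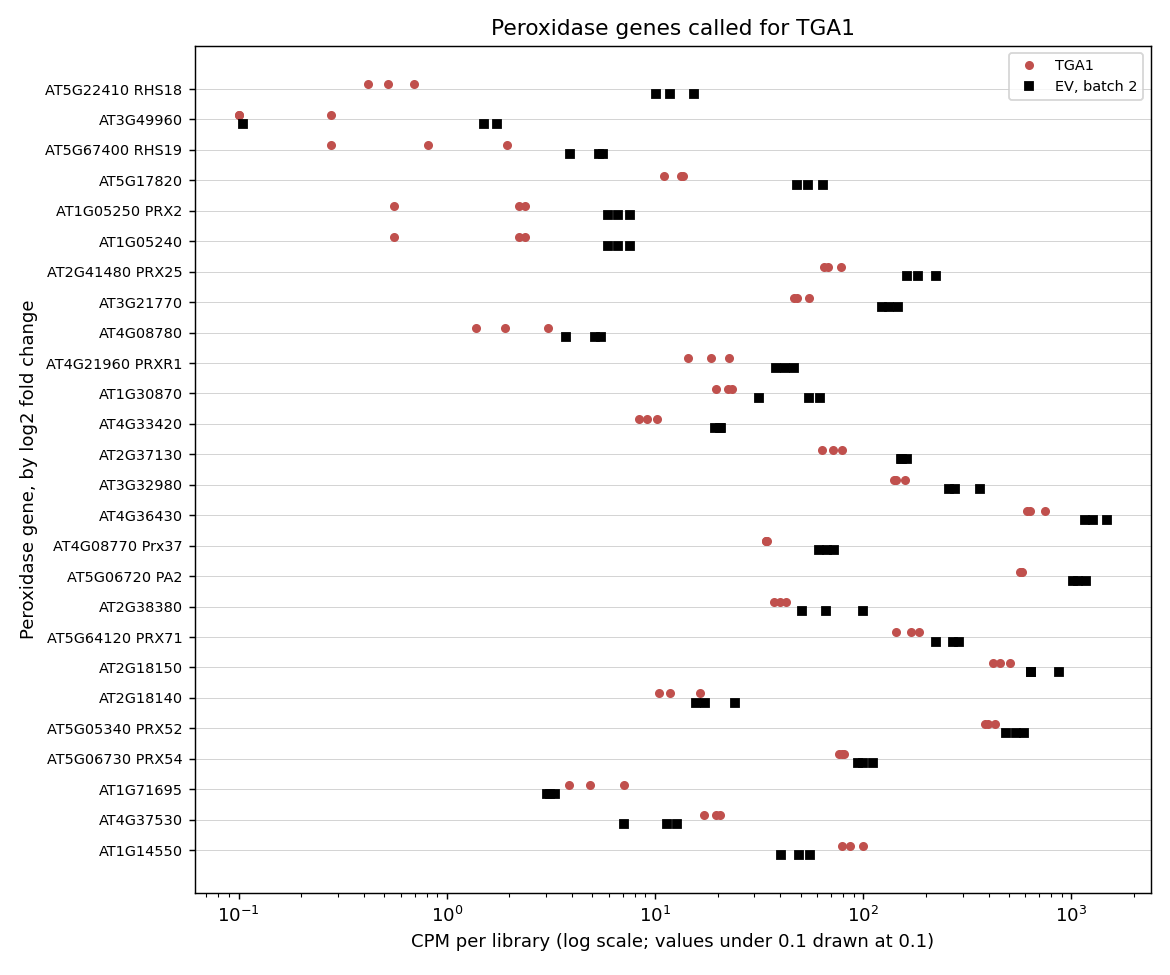
Level in CPM (x axis, log scale) of the 26 peroxidase genes called for TGA1, with the 3 TGA1 libraries as circles and the 3 EV libraries of batch 2 as squares, ordered by log2 fold change. RHS18, at the top, had 0.418 to 0.694 CPM in TGA1 libraries and 10.12 to 15.4 CPM in EV libraries, and the 3 induced genes stand at the bottom.

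AT1G05240 and PRX2 carry the same coding sequence. Their counts were equal in 98 libraries and within 1 count in 107, so the same reads were counted for both and the genes cannot be told apart. TGA1 gave AT1G05240 2.37, 2.22 and 0.557 CPM in TGA1 libraries, against 6.67, 5.96 and 7.62 CPM in EV libraries (log2 fold change -1.901 ± 0.58 (SE), edgeR adjusted p = 0.0123), and the values of PRX2 in these libraries were identical. ERF5 gave AT1G05240 6.42, 3.73 and 11.49 CPM in ERF5 libraries, against 1.36, 1.49 and 2.09 CPM in EV libraries (log2 fold change 2.12 ± 0.67 (SE), edgeR adjusted p = 0.0368). Under ERF5 it was a call lost without EV replicate 1 (edgeR adjusted p = 0.114) or 2 (0.139) or 3 (0.0787) and without replicate 1 (edgeR adjusted p = 0.199) or 2 (0.0863) or 3 (0.209) of every group, and PRX2 lost its call in the same cases. Under TGA1 it was a call lost without replicate 1 (edgeR adjusted p = 0.0902) or 3 (0.0988) of every group. AT1G05240 was called for 2 TFs and PRX2 for 3, the third being DIV1. Counted as 1 gene, the pair was called upward for ERF5 and downward for TGA1. The same reads therefore enter the tallies of both the root hair group and the vascular and stem lignin group for these TFs.

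AT5G64100, another root hair member, was called for 9 TFs, 8 upward and 1 downward. DIV1 gave it 149, 148 and 179 CPM in DIV1 libraries, against 29.8, 22.2 and 26.7 CPM in EV libraries (log2 fold change 2.59 ± 0.22 (SE), edgeR adjusted p = 9.64e-17), its largest change, with all DIV1 libraries far above EV. AT5G39580 was called for 8 TFs, 6 upward and 2 downward, and is CHX-listed. AT4G26010 was called for 2 TFs, MYB61 and RAV1, both upward, and MYB61 gave 10.9, 5.74 and 4.74 CPM in MYB61 libraries, against 0.995, 0.558 and 0.168 CPM in EV libraries (log2 fold change 3.61 ± 0.74 (SE), edgeR adjusted p = 1.22e-04). The root hair markers summed to 15.4 to 23.1 CPM in MYB61 libraries, against 8.21 to 18.1 CPM in EV libraries and were called for 0 genes there.

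The growth-zone genes that UPBEAT1 is known to repress, outside the other groups, were AT4G16270 and AT5G17820. AT5G17820 was called for 2 TFs, upward under CDF1 and downward under TGA1, where it had 11.05, 13.3 and 13.6 CPM in TGA1 libraries, against 48.1, 54.5 and 64.1 CPM in EV libraries (log2 fold change -2.14 ± 0.46 (SE), edgeR adjusted p = 2.33e-04). AT4G16270 was called for 0. UPBEAT1 itself (AT2G47270) was called for 4 TFs, all upward (BEE2, COL5, HB6 and LBD37), and not for CDF1 or TGA1.

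Of the 35 members outside these groups, 31 were tested, with 88 calls upward and 72 downward (15.6% of 1023 comparisons, all genes 9.58%). AT4G37520 was called for 17 TFs and AT4G37530 for 16, all upward. Beside their 0 downward calls stand 0 TFs at an unadjusted p under 0.05 in edgeR and 0 in DESeq2 for both genes. CDF1 gave AT4G37520 31.4, 31.5 and 32.6 CPM in CDF1 libraries, against 6.36, 8.798 and 8.36 CPM in EV libraries (log2 fold change 2.02 ± 0.20 (SE), edgeR adjusted p = 6.84e-13). C2H2 gave it 27.6, 23.9 and 26.1 CPM in C2H2 libraries, against 6.36, 8.798 and 8.36 CPM in EV libraries (log2 fold change 1.72 ± 0.20 (SE), edgeR adjusted p = 7.11e-11). In both TFs every library was above every EV library.

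The neighbour AT4G37530 rose under 8 of the same TFs (C2H2, CDF1, GATA17, HHO2, HSFB2A, LBD38, NAP and ZFP4), and the 2 genes were called in opposite directions under 0. HSFB2A gave AT4G37530 28.7, 35.7 and 44.9 CPM in HSFB2A libraries, against 9.11, 9.84 and 15.4 CPM in EV libraries (log2 fold change 1.69 ± 0.22 (SE), edgeR adjusted p = 1.72e-09). ERF056 gave 25.05, 26.8 and 29.1 CPM in ERF056 libraries, against 9.11, 9.84 and 15.4 CPM in EV libraries (log2 fold change 1.26 ± 0.22 (SE), edgeR adjusted p = 6.71e-06), and TGA1 gave 19.6, 17.2 and 20.6 CPM in TGA1 libraries, against 7.11, 11.4 and 12.7 CPM in EV libraries (log2 fold change 0.86 ± 0.22 (SE), edgeR adjusted p = 0.00203). Each TF library was above all EV libraries, by the least under TGA1. Their coding sequences share 92.4% of bases, and how multiply mapped reads were counted is not given in the sources used here.

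AT3G21770 was called for 14 TFs, 1 upward and 13 downward. TGA1 gave 55.1, 46.5 and 48.3 CPM in TGA1 libraries, against 146, 132 and 123 CPM in EV libraries (log2 fold change -1.41 ± 0.14 (SE), edgeR adjusted p = 2.15e-14), and DIV1 gave 24.7, 22.6 and 21.3 CPM in DIV1 libraries, against 17.1, 11.6 and 13.5 CPM in EV libraries (log2 fold change 0.73 ± 0.19 (SE), edgeR adjusted p = 0.00175), a call lost without replicate 2 (edgeR adjusted p = 0.0929) of every group. DIV1 was its single upward call. Prx37 (AT4G08770) was called for 13 TFs, 8 upward and 5 downward. FBH4 gave 282 and 342 CPM in FBH4 libraries, against 155, 186 and 167 CPM in EV libraries (log2 fold change 0.88 ± 0.13 (SE), edgeR adjusted p = 2.56e-07). TGA1 gave 34.2, 34.3 and 34.7 CPM in TGA1 libraries, against 72.4, 61.3 and 66.8 CPM in EV libraries (log2 fold change -0.96 ± 0.12 (SE), edgeR adjusted p = 4.43e-10). Its near-identical neighbour AT4G08780 (92.8% of residues shared) was called for 5 TFs, 1 upward and 4 downward, each in the same direction as Prx37.

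AT4G30170 was called for 7 TFs, all upward, and C2H2 gave 9.85, 10.8 and 9.81 CPM in C2H2 libraries, against 5.601, 2.62 and 5.18 CPM in EV libraries (log2 fold change 1.196 ± 0.30 (SE), edgeR adjusted p = 0.00208), a call lost without EV replicate 2 (edgeR adjusted p = 0.0565) and without replicate 2 (edgeR adjusted p = 0.149) of every group. AT5G19890 was called for 5 TFs, 2 upward and 3 downward. FBH4 gave 4.79 and 6.81 CPM in FBH4 libraries, against 0.663, 1.68 and 0.335 CPM in EV libraries (log2 fold change 2.798 ± 0.78 (SE), edgeR adjusted p = 0.0152), a call lost without EV replicate 1 (edgeR adjusted p = 0.0599) or 3 (0.0958) and without replicate 1 (edgeR adjusted p = 0.122) or 3 (0.142) of every group. The ERF5 libraries held 0 counts of AT5G19890, against 14 counts over the EV libraries of batch 6, so this call rests on very few reads. AT2G35380 was called for 8 TFs, 2 upward and 6 downward. Of its 6 downward calls, 5 were in batch 6, where its EV level was 1.36, 1.12 and 3.22 CPM and 29 counts in all. HSFB2A, in batch 1, gave AT2G35380 152, 158 and 181 CPM in HSFB2A libraries, against 114, 81.6 and 71.6 CPM in EV libraries (log2 fold change 0.87 ± 0.17 (SE), edgeR adjusted p = 6.46e-05).

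The remaining members were called for fewer TFs or with less change. AT2G18150 was called for 11 TFs (5 upward, 6 downward), as was AT4G36430 (3 upward, 8 downward). AT2G37130 was called for 7 (2 upward, 5 downward), and AT1G71695 for 6, all upward. AT3G28200 was called for 4, all downward, AT2G18140 for 4 (1 upward, 3 downward), AT5G14130 for 3, all upward, and AT1G30870 for 3 (2 upward, 1 downward). AT2G38380, AT2G38390, AT1G68850 and PRXR1 were each called for 2, once in each direction. AT3G49960, under TGA1, and PER36 (AT3G50990), a gene of seed mucilage, under HSFB2A, were each called for 1 TF, downward, and both are CHX-listed.

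Besides AT1G44970 and AT4G16270, the tested members called for 0 TFs were AT1G24110, AT2G18980, AT3G01190, AT4G25980, AT5G15180, AT5G40150 and AT5G58390. Beside these zeros edgeR gave between 1 and 4 TFs per gene at an unadjusted p under 0.05, and DESeq2 called 1 TF for AT1G44970 and 0 for the other 8. Their highest EV median was 1.71 CPM. Members of similarly low EV level were called, such as AT4G26010, with an EV median of 0.685 CPM, and AT5G19890, with 1.595 CPM.

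Genes that work beside the peroxidases were counted by lists. Of the 10 NADPH oxidases, 8 were tested, with 26 calls upward and 50 downward (28.8% of comparisons). RBOHD (AT5G47910), the oxidase of the pathogen burst, was called for 24 TFs, 3 upward (HAT22, MYB61 and TCP23) and 21 downward. RBOH F (AT1G64060), which works with PER64 at the Casparian strip, was called for 12, 2 upward and 10 downward. RHD2 (AT5G51060), the oxidase of root hair growth, was called for 14, 9 upward and 5 downward.

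Of the 17 laccases, which oxidise monolignols with oxygen, 16 were tested, with 43 calls upward and 32 downward (14.2%). The 12 monolignol synthesis genes had 23 calls upward and 97 downward (30.3%). MYB61 induced 11 of these 12 genes and 8 laccases and repressed 0 in either list, beside the 13 peroxidases it induced. ERF056 repressed 10 of the monolignol genes, GATA17 and TGA1 9 each, HSFB2A, HHO3 and bZIP3 8 each, and C2H2, COL5, GATA17L and RAV1 7 each. The 9 tested superoxide dismutases and catalases, which make and remove hydrogen peroxide, had 7 calls upward and 60 downward (22.6%). Over all genes 9.58% of comparisons were called, and no list was tested against the other genes.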

How the data were processed

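The authors sorted transfected root protoplasts, made RNA-seq libraries, aligned reads to TAIR10 with TopHat2 and counted them per gene. The deposited values are whole-number counts per gene and library, not normalized, and how reads that map to several genes were counted is not given in the sources used here. All libraries were fitted together in edgeR 4.0.16 (R 4.3.3) with TMM normalization and with terms for TF and batch. A gene was tested where 3 or more libraries held 10 or more counts. The quasi-likelihood F test was run with robust estimation, and p-values were adjusted by Benjamini-Hochberg within each TF over 22883 genes, with a threshold of 0.05. The standard error of a log2 fold change is its size divided by the square root of F. Fits without some libraries reused the dispersion trend of the full fit and re-estimated normalization and spread. Alternatives were DESeq2 1.42.0, its size factors in edgeR, no filter on low counts, a replicate block and batches fitted separately. Further ones were near-identical copies summed and libraries left out in turn. Members on the study's list of CHX-responsive genes were also left out of the count, with no new fit.

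Total counts ran between 1542961 and 45372240 per library. Members, groups, lists and the rule for named genes were chosen with earlier results of these data known. By that rule, every member is named with its number of TFs, and values per library are given for the 12 members called for the most TFs, the 8 induced and 8 repressed pairs with the largest change among those with a mean of at least 5 CPM and no overlap of the groups, the lowest adjusted p in each direction for the 5 TFs with the most members called, and group members in the TFs that call most of a group. The 3 DIV1 calls that rest on 1 library, PA2 in TCP23 and AT2G35380 were added after their values were seen. The edgeR script was tested on simulated counts. Gene names, positions and promoters are from RefSeq TAIR10.1. One promoter sequence is not reported here.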

Additional observations from a re-analysis of the deposited data

How the results depend on the processing

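Most calls were stable under the other analyses. In place of 353 calls over the 33 TFs, there were 412 with DESeq2, 359 with DESeq2 size factors and 328 with no filter on low counts. There were 356 with batches 1 to 4 and 5 and 6 fitted apart and 374 with each batch fitted on its own. Near-identical copies summed gave 335. The direction of a call changed in none of these fits, and in 2 calls without replicate 3. Leaving out the CHX-listed members only removed their 70 calls, with no new fit, and left 283. Batch 3 had 63 calls with each batch fitted on its own, in place of 41. With 1 library left out at a time from the EV groups, or 1 replicate number from every group, the total ran between 202 and 357, the induced calls between 89 and 173 and the repressed calls between 113 and 189. The calls ran between 40 and 63 in batch 1, 17 and 27 in batch 2, 14 and 43 in batch 3, 50 and 97 in batch 4, 40 and 64 in batch 5 and 38 and 68 in batch 6. The lowest values came without replicate 2, except in batch 2, where they came without replicate 1. The causes were not tested. Batch 5 had between 0 and 4 repressed calls over all of these analyses.

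With the replicate block, 433 calls were made, and batch 3 had 63 in place of 41. Same-numbered libraries were paired weakly at most. Of 97 same-numbered pairs of a TF and an EV library, 7 had deviations that correlated above 0.1 (median 0.01). In 0 of the 31 TFs with 3 pairs were all above it. In 3 of these TFs every library correlated best with its own number. In batch 4 the same-numbered correlations ran from 0.053 (ZFP4) to 0.128 (C2H2) for replicate 1. They ran from -0.032 (HHO2) to 0.038 (NAC4) for replicate 2, and from 0.025 (HHO2) to 0.095 (CDF1) for replicate 3.

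Among the 58 member and TF pairs named by rule, DESeq2, the DESeq2 size factors and the block lost 0 calls, no filter lost 3 and fitting the batches apart lost 2. Leaving out replicate 1, 2 or 3 lost 9, 10 and 9 calls. Of the 60 members, 13 had an EV median under 1 CPM; what size of change could be detected at such depth was not tested.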
